A study of Homo sapiens with 6 samples.

Results

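Epithelial-mesenchymal transition (EMT) is the programme by which epithelial cells lose their junctions and take on the shape and motility of mesenchymal cells. It is driven by a small set of transcription factors that repress epithelial genes, chiefly by binding E-box motifs in their promoters, and it is opposed by factors that keep the epithelial state. The 10 genes described here are 6 EMT-inducing factors (SNAI1, SNAI2, TWIST1, TWIST2, ZEB1 and ZEB2) and 4 epithelial counterparts (OVOL1, OVOL2, GRHL2 and ESRP1), picked by symbol from the 58735 genes of the deposited table. Each symbol matched 1 row. In carcinomas, the ZEB factors and the microRNAs of the miR-200 family repress each other, and the OVOL factors and GRHL2 are known repressors of ZEB1, so that these genes form a switch between both states.

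Expression was measured by RNA sequencing in SW480, a human colorectal adenocarcinoma cell line, in 3 libraries labelled as DDX39B overexpression and 3 labelled as control. All were grown in L-15 medium with serum. How DDX39B, an RNA helicase of splicing and mRNA export, was overexpressed and whether the cells were clones or pools were not given in the sources used here. Which genes differ when DDX39B is overexpressed was the question of the study. Levels are FPKM, a value scaled by gene length and a factor per library, and each library held 16963075 to 17463697 reads.

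DDX39B went against the labels. It had a level of 15.0, 13.9 and 14.0 FPKM in the overexpression-labelled libraries, against 39.3, 34.6 and 41.9 FPKM in the control-labelled ones, a 2.70-fold lower level. The groups are therefore called by their labels, and every direction below is that of the libraries as labelled. Among the 13972 genes that averaged 1 FPKM or more, 76.8% passed the test between the groups (limma, Benjamini-Hochberg adjusted p below 0.05), 37.5% higher and 39.3% lower in the overexpression-labelled libraries, and the median log2 fold change was -0.03. Passing the test is thus common in this comparison, and sizes and levels say more about a gene than its call.

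All 6 EMT-inducing factors had lower levels and all 4 epithelial counterparts had higher mean levels in the overexpression-labelled libraries. For GRHL2, at 8 reads over the overexpression-labelled group and 2 over the control-labelled one, the groups overlapped. Summed over the 6 EMT-inducing factors, the level was 4.48, 4.07 and 4.34 FPKM in the overexpression-labelled libraries, against 47.1, 42.2 and 66.1 FPKM in the control-labelled ones. Summed over the 4 epithelial counterparts, it was 20.1, 19.8 and 18.8 FPKM in the overexpression-labelled libraries, against 0, 0.0584 and 0.0771 FPKM in the control-labelled ones. Most of that sum in the overexpression-labelled libraries was ESRP1, at 15.3, 15.4 and 15.1 FPKM. The EMT-inducing factors held the larger sum in the control-labelled libraries and the epithelial counterparts in the overexpression-labelled ones, with no overlap between the groups for either. These are bulk samples, in which fewer cells of a type and less RNA per cell cannot be told apart.

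Of the 10 genes, 7 passed the filter of an average of 1 FPKM, and all 7 passed the test, 2 higher and 5 lower. Only SNAI1 was above 1 FPKM in both groups. The other 6 passed the filter through the group in which they are high, so that count carries no support of its own. ZEB2, OVOL1 and GRHL2 were under the filter. With no filter 44.5% of 33913 genes passed, and among the 10 genes 3 were then higher, 6 lower and GRHL2 not called. The groups did not overlap for 9 of the 10 genes, against 80.1% of the 13972 genes tested (39.2% higher and 40.9% lower).

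**Figure D1:**
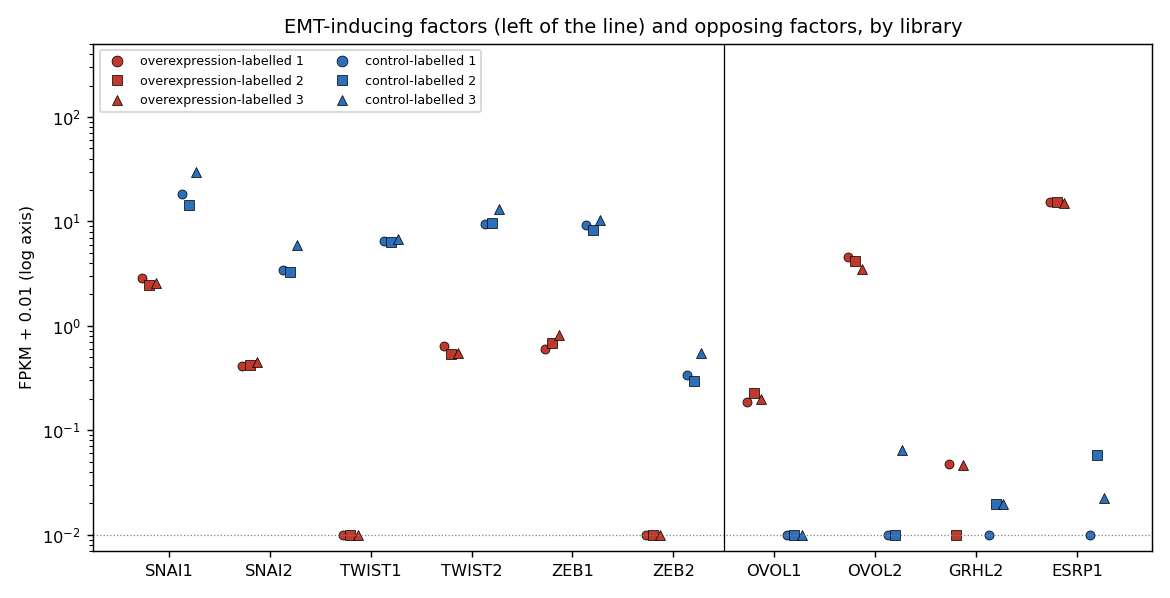
FPKM plus 0.01 of the 10 genes (log axis) in each overexpression-labelled (red) and control-labelled (blue) library, with the EMT-inducing factors left of the line; the dotted line marks 0 reads. The red points lie under the blue ones for the 6 factors on the left, and over them for OVOL1, OVOL2 and ESRP1, while those of GRHL2 overlap.

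SNAI1 (Snail) and SNAI2 (Slug) are zinc finger repressors that bind E-boxes, among them those of the CDH1 promoter. SNAI1 (chr20:49982999-49988886, plus strand, GRCh38) had a level of 2.86, 2.46 and 2.56 FPKM in the overexpression-labelled libraries, against 18.3, 14.4 and 29.6 FPKM in the control-labelled ones. It was the highest of the 6 factors in both groups, and its groups were far apart although the third control-labelled library stood above the other two. The mean was 2.63 ± 0.21 FPKM in overexpression-labelled libraries and 20.7 ± 7.9 FPKM in control-labelled libraries (SD, n = 3 each), 7.90-fold lower (log2 fold change -2.52 with an SE of 0.24, limma adjusted p 7.42e-05). SNAI2, on chromosome 8, had a level of 0.401, 0.408 and 0.446 FPKM in the overexpression-labelled libraries, against 3.40, 3.27 and 5.88 FPKM in the control-labelled ones. It fell 10.0-fold (log2 fold change -1.83 with an SE of 0.19, limma adjusted p 0.000112), with the third control-labelled library again the highest.

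The TWIST factors are basic helix-loop-helix proteins that bind E-boxes as dimers and are best known from mesoderm and craniofacial development. TWIST1 (chr7:19020991-19117672, minus strand) had 0 reads in each overexpression-labelled library, against 216, 219 and 231 reads (6.52, 6.38 and 6.79 FPKM) in the control-labelled ones. Its transcript was thus not detected in the overexpression-labelled libraries, at least 238-fold lower (log2 fold change -2.92 with an SE of 0.07, limma adjusted p 1.14e-07), and its level was nearly even in the control-labelled libraries. TWIST2 (chr2:238848032-238910543, plus strand) had a level of 0.634, 0.531 and 0.537 FPKM in the overexpression-labelled libraries, against 9.41, 9.69 and 13.0 FPKM in the control-labelled ones. It was 18.9-fold lower (log2 fold change -2.89 with an SE of 0.12, limma adjusted p 1.7e-06), yet 57 reads remained over the overexpression-labelled group. TWIST1 therefore made up 0% of the summed TWIST level in the overexpression-labelled libraries and 34.3% to 40.9% in the control-labelled ones.

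ZEB1 and ZEB2 are zinc finger and homeodomain proteins that repress CDH1 and the miR-200 genes and are themselves targets of miR-200. ZEB1 (chr10:31318495-31529814, plus strand) had a level of 0.590, 0.672 and 0.802 FPKM in the overexpression-labelled libraries, against 9.16, 8.21 and 10.3 FPKM in the control-labelled ones. The fall was 13.4-fold (log2 fold change -2.60 with an SE of 0.10, limma adjusted p 9.49e-07), and the libraries of each group lay close together. ZEB2 (chr2:144364364-144524583, minus strand) had 0 reads in each overexpression-labelled library, against 135, 121 and 226 reads (0.331, 0.286 and 0.539 FPKM) in the control-labelled ones. It was at least 172-fold lower but lay under the filter; with no filter its log2 fold change was -0.47 (limma adjusted p 0.00327). ZEB1 held 95.05% to 96.63% of the summed ZEB level in the control-labelled libraries, so ZEB2 was the minor paralog there. The exact share and the place of ZEB2 under the filter depend on the gene lengths used. These were 25058 bases for ZEB2 and 8650 for ZEB1, whose longest transcripts have 9583 and 6267 bases. By reads over the control-labelled group, too, ZEB2 was lower, with 482 against 3988.

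The microRNAs of the miR-200 family bind the 3′ untranslated regions of ZEB1 and ZEB2. Their mature sequences are shown because the 5 members share only 2 seeds, and the seed decides which of the ZEB sites each can pair with. The sequences are RefSeq's on GRCh38.p14, and capitals mark the seed, bases 2 to 8 from the 5′ end.
hsa-miR-200b-3p: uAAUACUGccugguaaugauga
hsa-miR-200c-3p: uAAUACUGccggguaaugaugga
hsa-miR-429: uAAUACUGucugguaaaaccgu
hsa-miR-200a-3p: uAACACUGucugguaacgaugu
hsa-miR-141-3p: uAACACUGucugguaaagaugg

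The first 3 have the seed AAUACUG and pair with CAGTATT in DNA letters, and the last 2 have AACACUG and pair with CAGTGTT. Both 7-letter sites were searched on the transcript strand of the 3′ untranslated region of 1 transcript for each EMT-inducing factor (GENCODE release 29). ZEB1 held 8 sites in 1938 bases, 5 of CAGTATT and 3 of CAGTGTT, and ZEB2 held 9 in 5370 bases, 5 and 4. SNAI2 held 1 CAGTATT, and SNAI1, TWIST1 and TWIST2 held neither in these regions. At least 1 site stood in 40.2% of 5150 stretches of the same length as ZEB1's, each taken from the stop codon of 1 transcript per gene, and at least 8 in 2 of them, ZEB1 included. For the ZEB2 length the share with at least 1 was 74.5% of 884, and 1 stretch, that of ZEB2 itself, had at least 9. The density of these letters thus sets ZEB1 and ZEB2 apart from most regions of like length, and a match is a description, not a shown site of repression. Examples of each kind follow, with the matching letters in capitals, from chr10:31527621-31527642 and chr10:31528034-31528055 of ZEB1 (plus strand) and from chr2:144389050-144389071 and chr2:144389234-144389255 of ZEB2 (minus strand).
ZEB1 site for the AAUACUG seed: gttttatcttatCAGTATTatc
ZEB1 site for the AACACUG seed: aatcatcagaatCAGTGTTtgt
ZEB2 site for the AAUACUG seed: actaccatacatCAGTATTttt
ZEB2 site for the AACACUG seed: aaaaattttgtaCAGTGTTaag

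The genes of these microRNAs were read almost only in the overexpression-labelled libraries. MIR200B had 25, 22 and 25 reads in the overexpression-labelled libraries, against 0 in each control-labelled one, and MIR200A had 19, 24 and 21 reads against 0 in each. MIR429, the third hairpin of this chromosome 1 cluster, had 41, 40 and 33 reads in the overexpression-labelled libraries, against 0, 0 and 1 read in the control-labelled ones. All 3 were called higher (limma adjusted p 6.44e-08, 1.12e-07 and 3.53e-06). MIR200CHG, the host transcript of the chromosome 12 cluster, had 68, 56 and 46 reads in the overexpression-labelled libraries, against 0, 1 and 0 reads in the control-labelled ones (limma adjusted p 2.13e-06). Within it, MIR200C had 4 reads over the overexpression-labelled group and 0 over the control-labelled one, and MIR141 had 6 and 0. These are mRNA libraries, so such reads come from the primary transcripts; the mature microRNAs were not measured.

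The list of microRNA genes held 10 genes, of which 5 were tested and 4 were called, all higher. Over all genes tested 76.8% were called, 37.5% higher and 39.3% lower. Each of the 4 called microRNA genes passed the filter only through the overexpression-labelled libraries, so their count carries no support of its own. MIR34AHG, the host of the p53-induced miR-34a that targets SNAI1, had 578 reads over the overexpression-labelled group and 582 over the control-labelled one and was not called (log2 fold change -0.06 with an SE of 0.10, limma adjusted p 0.594). MIR205 and MIR34A had 0 reads in all libraries, and MIR205HG had 1 read over the overexpression-labelled group and 0 over the control-labelled one. By their reads in each library, the miR-200 and ZEB genes lay on opposite sides, while the host genes of the other microRNA families that target EMT factors were at like levels or near 0.

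**Figure D2:**
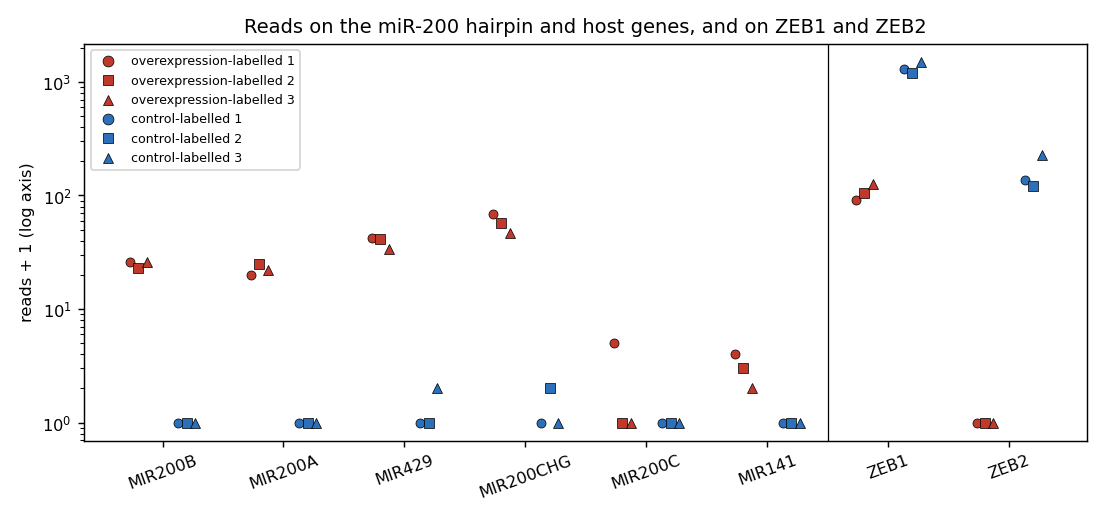
Reads plus 1 (log axis) on the miR-200 hairpin and host genes and, right of the line, on ZEB1 and ZEB2, in each overexpression-labelled (red) and control-labelled (blue) library. MIR200B, MIR200A, MIR429 and MIR200CHG have 19 to 68 reads in each red library and 0 or 1 in each blue one, and ZEB1 and ZEB2 lie the other way round.

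ESRP1 is a splicing regulator of epithelial cells that directs exon choice in transcripts such as FGFR2, CD44 and ENAH, and its gene is repressed by ZEB1 and SNAI1. ESRP1, on chromosome 8, had a level of 15.3, 15.4 and 15.1 FPKM in the overexpression-labelled libraries, against 0, 0.0486 and 0.0123 FPKM in the control-labelled ones. The overexpression-labelled libraries differed by only 0.980% (coefficient of variation), and the control-labelled group held 5 reads in all against 3986 over the overexpression-labelled group. It was 752-fold higher (counting interval 318 to 2289, log2 fold change 3.99 with an SE of 0.06, limma adjusted p 2.35e-08). It was the highest of the 10 genes in the overexpression-labelled libraries.

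OVOL1 and OVOL2 are zinc finger repressors that hold epithelial cells back from EMT, in part by repressing ZEB1. OVOL2 (chr20:17956979-18059188, minus strand) had a level of 4.59, 4.17 and 3.47 FPKM in the overexpression-labelled libraries, against 0, 0 and 0.0550 FPKM in the control-labelled ones. It had 475 reads over the overexpression-labelled group against 2 over the control-labelled one, 223-fold higher (exact counting interval 60.9 to 1833, log2 fold change 2.31 with an SE of 0.10, limma adjusted p 1.98e-06). OVOL2 overlaps MGME1 on the other strand, with 0 shared exon bases. OVOL1 (chr11:65787022-65797219, plus strand) had 12, 15 and 13 reads in the overexpression-labelled libraries, against 0 in each control-labelled one, at least 12.4-fold higher, at a level of 0.177 to 0.216 FPKM in the overexpression-labelled libraries. OVOL1 was thus detected at a low level, and with no filter its log2 fold change was 0.26 (limma adjusted p 0.00051).

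GRHL2, a grainyhead-like factor that activates CDH1 and junction genes, did not follow the other epithelial counterparts in level. GRHL2 had 4, 0 and 4 reads in the overexpression-labelled libraries, against 0, 1 and 1 read in the control-labelled ones. The ratio of mean levels was 3.79 with an exact counting interval of 0.744 to 36.03, the groups overlapped, and with no filter the gene was not called (limma adjusted p 0.405). At this depth it was near the limit of detection in both groups, and a difference was not detectable.

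Ranked by FPKM, the order in the overexpression-labelled libraries was ESRP1, OVOL2, SNAI1, ZEB1, TWIST2, SNAI2, OVOL1, GRHL2, and then ZEB2 and TWIST1 at 0. The libraries of neighbours overlapped for ZEB1 and TWIST2 and among the last 3. In the control-labelled libraries the order was SNAI1, TWIST2, ZEB1, TWIST1, SNAI2, ZEB2, and then ESRP1, OVOL2, GRHL2 and OVOL1 near or at 0. There the neighbours TWIST2 and ZEB1 overlapped, as did the last 4. The lowest EMT-inducing factor of the control-labelled libraries, ZEB2 at 0.385 FPKM, still lay above all 4 epithelial counterparts.

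The members of each family were not all alike. ESRP2, the paralog of ESRP1, measured 8.66 ± 0.14 FPKM in overexpression-labelled libraries and 10.2 ± 1.5 FPKM in control-labelled libraries (SD, n = 3 each) and was not called (log2 fold change -0.20 with an SE of 0.10, limma adjusted p 0.109). Without the third control-labelled library it was called lower (limma adjusted p 0.00492). The summed ESRP level was 23.7 to 24.1 FPKM in the overexpression-labelled libraries, with 63.4% to 64.2% from ESRP1, and 8.63 to 11.7 FPKM in the control-labelled ones, with 0% to 0.415% from ESRP1. The control-labelled libraries thus held an ESRP transcript, almost all of it ESRP2.

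GRHL1, the paralog of GRHL2, measured 2.20 ± 0.11 FPKM in overexpression-labelled libraries and 1.76 ± 0.64 FPKM in control-labelled libraries (SD, n = 3 each) and was not called (log2 fold change 0.24 with an SE of 0.16, limma adjusted p 0.206). Without the third control-labelled library it was called higher (limma adjusted p 0.00335). GRHL1 held 89.7% or more of the summed GRHL level in every library. GRHL3 had 0.104 FPKM on average in the overexpression-labelled libraries and 0.117 FPKM in the control-labelled ones.

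SNAI3, the third Snail factor, had 16, 23 and 29 reads in the overexpression-labelled libraries, against 3, 3 and 6 reads in the control-labelled ones. Its mean was 0.732 FPKM in the overexpression-labelled libraries and 0.139 FPKM in the control-labelled ones, under the filter (limma with no filter, log2 fold change 0.60, adjusted p 0.00504). Its direction was the opposite of that of SNAI1 and SNAI2, at a low level, and SNAI3-AS1, which overlaps it, measured 0.382 FPKM in the overexpression-labelled libraries and 0.242 FPKM in the control-labelled ones. Without strand the reads of such partners cannot be told apart. OVOL3 measured 0.626 FPKM in the overexpression-labelled libraries and 0.509 FPKM in the control-labelled ones. The related SCRT1 had 20 reads over the overexpression-labelled group and 4 over the control-labelled one, and SCRT2 had 1 and 2.

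ZEB1-AS1, an antisense RNA that shares 366 exon bases with ZEB1 by position, measured 1.60 ± 0.28 FPKM in overexpression-labelled libraries and 1.02 ± 0.28 FPKM in control-labelled libraries (SD, n = 3 each). It was called higher (log2 fold change 0.36 with an SE of 0.13, limma adjusted p 0.0428), but the call was lost under 7 alternatives. Its level lay on the opposite side from that of ZEB1, and without strand the reads of both cannot be told apart over the shared bases. ZEB2-AS1 and OVOL1-AS1 had 0 reads in all libraries.

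**Figure D3:**
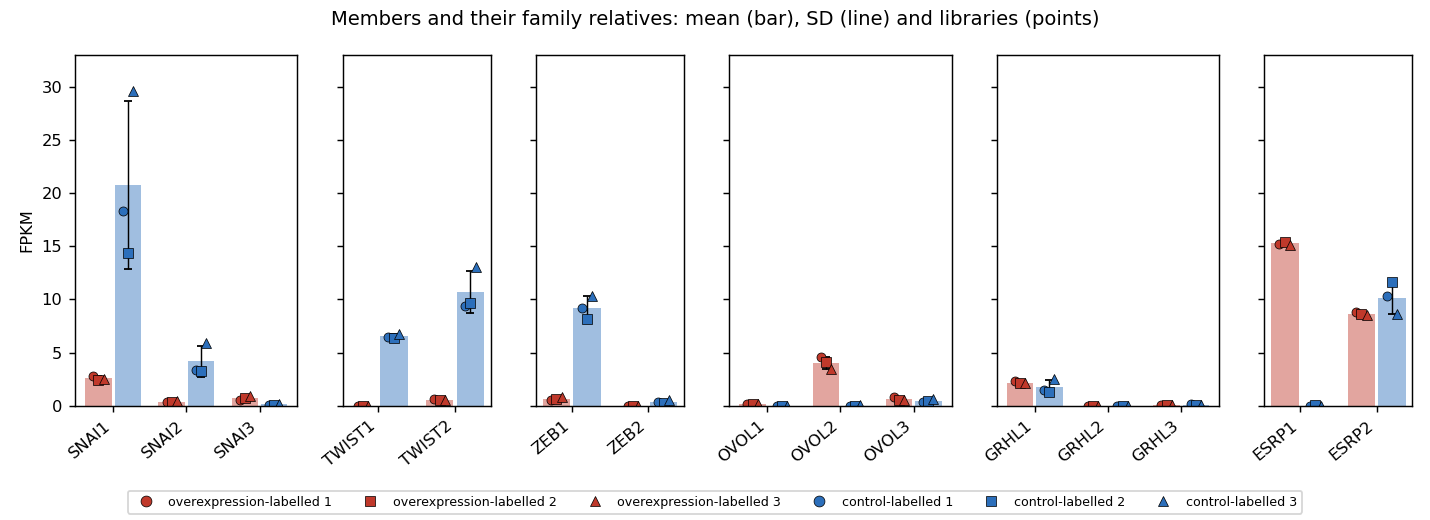
FPKM of the 10 genes and their family relatives, as the mean (bar), SD (line, n = 3) and each library (points), with overexpression-labelled libraries in red and control-labelled ones in blue. ESRP2 and GRHL1 have overlapping groups beside the widely separated ESRP1 and the near-absent GRHL2.

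The control-labelled libraries did not agree equally on every factor. The third control-labelled library, over the mean of the other two, held 1.81 times the SNAI1 level, 1.77 times that of SNAI2 and 1.75 times that of ZEB2, but 1.36 times that of TWIST2, 1.19 times that of ZEB1 and 1.05 times that of TWIST1. Over the 12472 genes that averaged 1 FPKM or more in the control-labelled libraries the median of this ratio was 1.00, and 5.00% reached 1.5. ZEB2, at 0.385 FPKM in the control-labelled libraries, was not among those genes. SNAI1, SNAI2 and ZEB2 thus stood higher in this 1 library by like ratios, which TWIST1 and ZEB1 did not reach, and TWIST2 lay between. Without that library the log2 fold change was -2.25 for SNAI1 and -1.61 for SNAI2 (limma adjusted p 1.01e-05 and 9.03e-06), so neither fall rests on it.

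**Figure D4:**
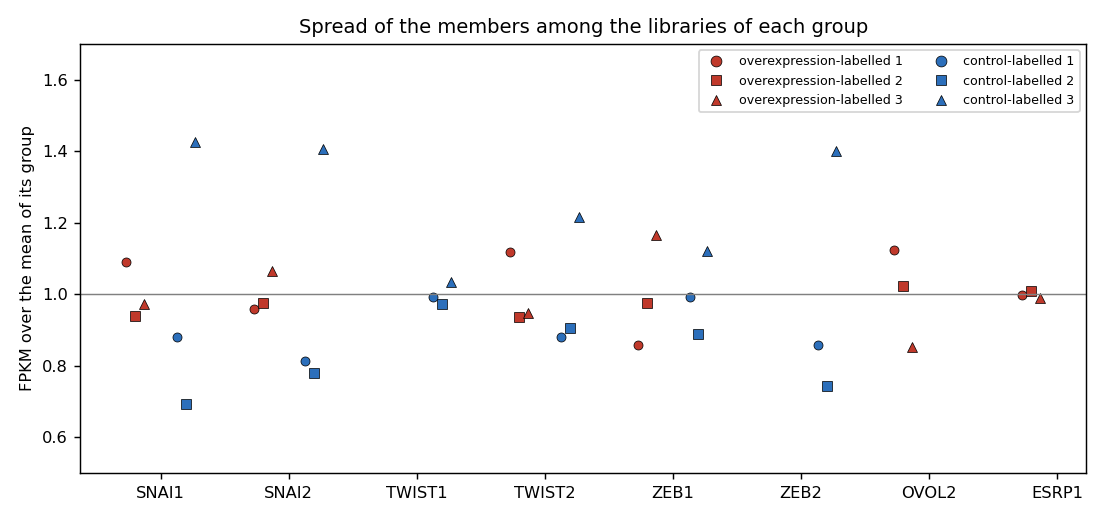
FPKM of each library over the mean of its group, for groups with at least 20 reads, in overexpression-labelled (red) and control-labelled (blue) libraries. The third control-labelled library (blue triangle) stands above the other two most for SNAI1, SNAI2 and ZEB2 and least for TWIST1.

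Further transcription factors of each side did not all move with the 10 genes. Of 14 other EMT-inducing factors, 10 were tested, of which 4 were higher and 5 lower, with a median log2 fold change of -0.35. Over all genes tested, 37.5% were higher and 39.3% lower. The call of TBX3, higher by 0.17 on the log2 scale, was lost under 10 alternatives. Among the 9 called factors, 3 passed the filter only through their higher group. FOXC2, a forkhead factor of mesenchymal cells, measured 0.470 FPKM in the overexpression-labelled libraries and 15.0 FPKM in the control-labelled ones, 31.9-fold lower, and FOXC1 was 4.51-fold lower (limma adjusted p 1.53e-07 and 3.63e-06). In contrast TBXT (brachyury), a mesoderm factor, had 669 reads over the overexpression-labelled group and 0 over the control-labelled one, at least 208-fold higher (limma adjusted p 1.49e-06). HMGA2, a chromatin protein that is known to induce SNAI1 and TWIST1, was 18.0-fold higher, with 6.66 FPKM in the overexpression-labelled libraries and 0.370 FPKM in the control-labelled ones (limma adjusted p 5.09e-07). Both directions were therefore found among factors known to induce EMT.

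Of 18 other factors of epithelial cells, 12 were tested, 5 higher and 7 lower, with a median log2 fold change of -0.35. Among all genes tested, 37.5% were higher and 39.3% lower. Of these 12, 8 passed the filter only through their higher group, and the calls of KLF5 and TFAP2C were lost under 3 alternatives each. CDX2, the intestinal homeobox factor, had 1059 reads over the overexpression-labelled group and 0 over the control-labelled one (limma adjusted p 3.13e-07). TFAP2A, a factor of ectodermal epithelia, was 31.3-fold lower, at 0.460 FPKM in the overexpression-labelled libraries and 14.4 FPKM in the control-labelled ones, and KLF4, known from gut epithelium, was 6.22-fold lower (limma adjusted p 9.91e-08 and 1.84e-07). ELF3 and GATA6 were also called lower, while EHF, HNF4A and FOXA3 were called higher. EHF measured 3.33 FPKM in the overexpression-labelled libraries and 0.0278 FPKM in the control-labelled ones, and HNF4A measured 5.74 and 0.703 FPKM. The epithelial factors, too, were split in direction.

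Epithelial genes that are reported targets of the SNAI and ZEB repressors were mostly higher. Of 25 listed, 24 were tested, 21 were higher, 0 lower and 3 (PATJ, LLGL2 and TJP3) not called, with a median log2 fold change of 1.63. Shares over all genes tested were 37.5% higher and 39.3% lower. Of the 21, 6 passed the filter only through the overexpression-labelled libraries. SPINT2 and SPINT1, inhibitors of the membrane proteases that include ST14, were 129-fold and 24.5-fold higher, and the adhesion protein EPCAM was 63.0-fold higher (limma adjusted p 1.14e-08, 2.57e-07 and 1.01e-07). The tight junction protein CLDN3 measured 41.0 FPKM in the overexpression-labelled libraries and 0.283 FPKM in the control-labelled ones (limma adjusted p 2.03e-08). CDH1, E-cadherin, had a level of 11.5, 10.8 and 10.7 FPKM in the overexpression-labelled libraries, against 0.199, 0.470 and 0.184 FPKM in the control-labelled ones (limma adjusted p 4.19e-07). RAB25 had 1 read over the overexpression-labelled group and 2 over the control-labelled one, and the call of MARVELD2 was lost under 5 alternatives.

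The SNAI and ZEB repressors bind the E-box CACCTG, whose reverse complement is CAGGTG. Both spellings were searched in the 250 bases before each gene start of RefSeq's GRCh38.p14 promoters, where each is the same motif on the other strand. They stood in 20.6% of 27305 genes, in 10 of the 13 epithelial target genes that have an entry (76.9%) and in 2 of 12 mesenchymal genes (16.7%). The epithelial list was drawn from reported targets of these repressors, so its share is not independent of the motif. Of the 10 genes 3 matched an entry (TWIST2, ZEB1 and ZEB2). The first entry of TWIST2 held 0 motifs, as did that of ZEB2, and the count for ZEB1 is not given here. The shares over genes, in contrast, count a motif in any entry of a gene. The promoters of MIR200CHG, with 1 motif, and of CRB3 and AP1M2, with 5 and 3, are shown as those of a ZEB-opposing microRNA host and of epithelial genes in which the motif recurs, with the motif in capitals. They lie at chr12:6962995-6963244 (plus strand), chr19:6464021-6464270 (plus strand) and chr19:10587313-10587562 (minus strand).
MIR200CHG: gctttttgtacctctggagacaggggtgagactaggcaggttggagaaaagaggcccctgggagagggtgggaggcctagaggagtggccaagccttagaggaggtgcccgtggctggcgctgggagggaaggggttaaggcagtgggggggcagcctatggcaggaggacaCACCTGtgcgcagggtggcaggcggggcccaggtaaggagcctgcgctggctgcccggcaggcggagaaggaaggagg
CRB3: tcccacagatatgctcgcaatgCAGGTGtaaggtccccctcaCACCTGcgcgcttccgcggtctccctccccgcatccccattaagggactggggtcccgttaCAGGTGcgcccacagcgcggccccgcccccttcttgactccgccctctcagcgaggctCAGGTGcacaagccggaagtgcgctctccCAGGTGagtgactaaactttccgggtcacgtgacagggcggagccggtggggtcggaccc
AP1M2: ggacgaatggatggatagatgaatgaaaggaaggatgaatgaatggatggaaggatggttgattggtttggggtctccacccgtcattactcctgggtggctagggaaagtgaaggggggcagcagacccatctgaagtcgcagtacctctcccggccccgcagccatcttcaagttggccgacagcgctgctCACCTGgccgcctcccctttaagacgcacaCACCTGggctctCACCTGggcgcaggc

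CRB3, a polarity protein, measured 12.4 ± 1.2 FPKM in overexpression-labelled libraries and 6.41 ± 1.00 FPKM in control-labelled libraries (SD, n = 3 each), 1.93-fold higher (limma adjusted p 0.00048). AP1M2, an adaptor of epithelial membrane sorting, measured 18.3 ± 0.4 FPKM in overexpression-labelled libraries and 10.3 ± 1.1 FPKM in control-labelled libraries (SD, n = 3 each), 1.78-fold higher (limma adjusted p 0.000105). In both genes the groups did not overlap, as was the case for 80.1% of the 13972 genes tested (39.2% higher).

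Mesenchymal genes did not move as a block. Of 22 listed, 13 were tested, 6 higher, 5 lower and 2 (COL6A1 and TAGLN) not called, with a median log2 fold change of 0.11. For comparison, 37.5% of all genes tested were higher and 39.3% lower. Among the 11 called, 5 passed the filter only through their higher group. COL5A1, a fibrillar collagen, was 433-fold lower, with 34 reads over the overexpression-labelled group and 13696 over the control-labelled one, and LOX, a collagen cross-linking enzyme, was 30.4-fold lower (limma adjusted p 2.8e-06 and 9.26e-06). MMP14, a membrane collagenase, had 6399 reads over the overexpression-labelled group and 9 over the control-labelled one (limma adjusted p 1.48e-08). The classical markers were divided as well. CDH2, N-cadherin, had 0 reads over the overexpression-labelled group and 391 over the control-labelled one, at least 140-fold lower, but lay under the filter. VIM, vimentin, was 1.55-fold lower at 32.4 FPKM in the overexpression-labelled libraries and 50.2 FPKM in the control-labelled ones (limma adjusted p 0.000105), and FN1, fibronectin, was 5.24-fold higher (limma adjusted p 4.09e-06).

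ESRP1 targets and partner splicing factors were measured at gene level, which does not show exon choice. Of 15 listed, 14 were tested, 4 higher, 6 lower and 4 not called, with a median log2 fold change of -0.09. For comparison, 37.5% of all genes tested were higher and 39.3% lower. ENAH, an actin regulator, was 6.71-fold lower and QKI, an RNA-binding protein that favours mesenchymal exon choice, 4.09-fold lower (limma adjusted p 9.84e-07 and 1.22e-05). SLK, a kinase, and CD44, the hyaluronan receptor, were 2.03-fold and 1.92-fold lower (limma adjusted p 0.000318 and 4.69e-05). FGFR2, under the filter, had 547 reads over the overexpression-labelled group and 83 over the control-labelled one. The calls of RBM47, SCRIB and NUMB were lost under 4 to 8 alternatives each.

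Corepressors that the SNAI, TWIST and ZEB factors recruit changed in both directions. Of 12 listed and tested, 2 were higher, 7 lower and 3 not called, with a median log2 fold change of -0.36. Over all genes tested 76.8% were called, 37.5% higher and 39.3% lower, so the number called does not set the corepressors apart. KDM1A, the histone demethylase bound by the SNAG domain of Snail, was 2.39-fold lower, and its partner RCOR1 was 2.10-fold lower (limma adjusted p 6.91e-06 and 0.000136). EZH2, the methyltransferase of Polycomb, and AJUBA, a LIM protein that binds Snail, were 1.92-fold and 1.47-fold lower (limma adjusted p 1.52e-05 and 0.000229).

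Regulators of the stability of these proteins were split. Of 16 listed, 15 were tested, 4 higher, 7 lower and 4 not called, with a median log2 fold change of -0.21. Among all genes tested, 37.5% were higher and 39.3% lower. CTDSP1, a phosphatase that stabilises Snail, was 3.61-fold higher, with 24.0 FPKM in the overexpression-labelled libraries and 6.63 FPKM in the control-labelled ones (limma adjusted p 0.000127). PAK1, a kinase that phosphorylates Snail, was 2.88-fold lower, and the ubiquitin ligases SIAH2 and SIAH1 were 2.74-fold and 2.81-fold lower (limma adjusted p 0.000161, 1.66e-05 and 1.32e-05). The call of FBXL14, a ligase of Snail, was lost under 6 alternatives. Protein levels were not measured.

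Transforming growth factor beta is an inducer of SNAI and ZEB genes through SMAD proteins. Of 9 genes of this pathway, 7 were tested, 1 higher, 3 lower and 3 not called, with a median log2 fold change of -0.36. Shares over all genes tested were 37.5% higher and 39.3% lower. SMAD4, the common mediator, had a level of 0.156, 0.135 and 0.0896 FPKM in the overexpression-labelled libraries, against 4.64, 4.39 and 4.53 FPKM in the control-labelled ones. It was 35.7-fold lower (limma adjusted p 3.94e-07), the most of the 7, and its groups were far apart. SMAD4 passed the filter only through the control-labelled libraries. SMAD2 was 5.31-fold lower and the receptor TGFBR2 1.79-fold lower, while the ligand TGFB1 was 1.65-fold higher (limma adjusted p 1.76e-06, 2.82e-05 and 0.00674).

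**Figure D5:**
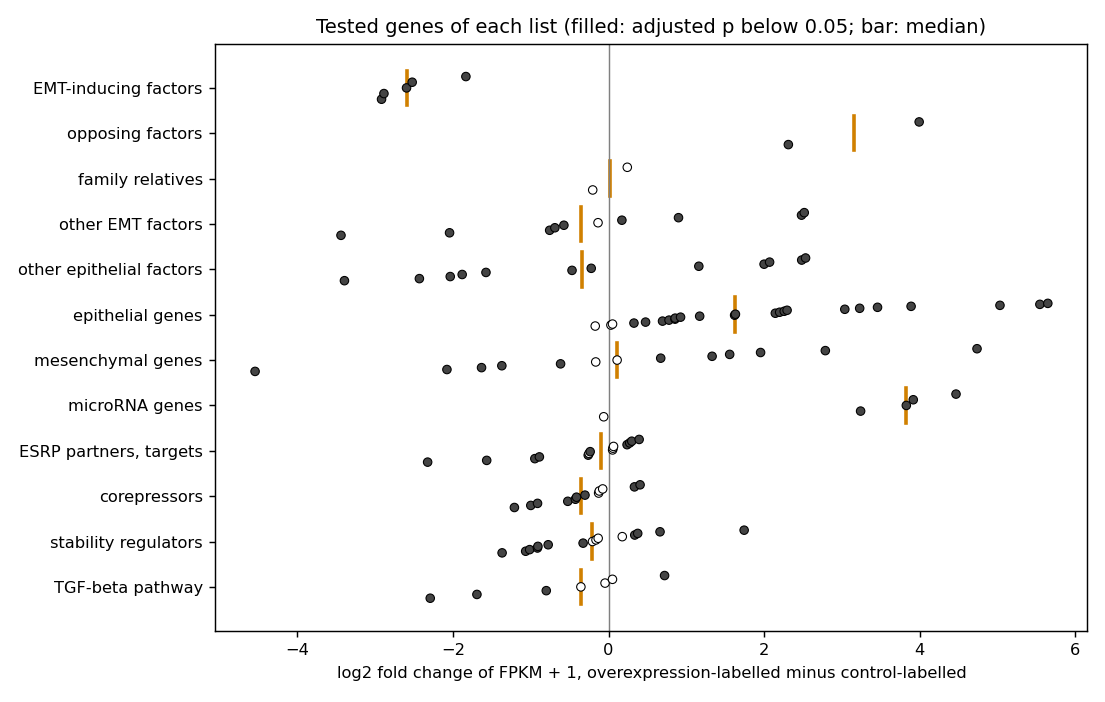
Log2 fold change of FPKM + 1, overexpression-labelled minus control-labelled, of each tested gene (points; filled where adjusted p is below 0.05) with the median of each list (bar). The EMT-inducing factors lie at -2.92 to -1.83 and the opposing factors at 2.31 and 3.99, while other EMT factors, other epithelial factors and mesenchymal genes spread to both sides of 0.

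Those markers of the labelled cell type that were tested moved with the epithelial counterparts, while KRT20 lay the other way. Of 12 markers of colorectal epithelium, 6 were tested and all 6 were higher, 4 of them passing the filter only through the overexpression-labelled libraries. Shares over all genes tested were 37.5% higher and 39.3% lower. The summed level over all 12 was 1796 to 1813 FPKM in the overexpression-labelled libraries, against 355 to 427 FPKM in the control-labelled ones. KRT19 had 62586 reads over the overexpression-labelled group and 29 over the control-labelled one, VIL1 was 22.9-fold higher, CDX2 is given above and KRT8 was 3.80-fold higher (limma adjusted p 1.87e-08, 3.47e-07 and 2.58e-07 for KRT19, VIL1 and KRT8). KRT8 and KRT18, keratins of simple epithelia, stood at 681 and 609.5 FPKM in the overexpression-labelled libraries, against 179 and 202 FPKM in the control-labelled ones, so keratin transcripts were abundant in both groups. KRT20, a keratin of differentiated gut epithelium, was under the filter with 6 reads over the overexpression-labelled group and 80 over the control-labelled one (limma with no filter, log2 fold change -0.80, adjusted p 0.00608). CDX1 had 0 reads in all libraries, and CDH17, GPA33, CEACAM5 and LGALS4 had 1 to 35 reads over the overexpression-labelled group and 0 to 14 over the control-labelled one. The part of these markers in the results above was not tested.

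Markers of other cell types were mostly low. The 9 fibroblast markers summed to 1.54 to 1.67 FPKM in the overexpression-labelled libraries and 4.42 to 8.30 FPKM in the control-labelled ones, most of it COL1A1 (4.01-fold lower, limma adjusted p 0.000523), and PDGFRA had 0 reads. The 8 leukocyte markers summed to 0.913 to 1.31 FPKM in the overexpression-labelled libraries and 0.159 to 0.714 FPKM in the control-labelled ones, with CD3D and MS4A1 at 0 in all; the highest were CD14, with 37 reads over the overexpression-labelled group and 24 over the control-labelled one, and LYZ, with 48 and 0. The 6 endothelial markers summed to 1.04 to 1.43 FPKM in the overexpression-labelled libraries and 36.2 to 50.6 FPKM in the control-labelled ones. Nearly all of the control-labelled sum was ESAM, a junction adhesion protein, at 0.678 FPKM in the overexpression-labelled libraries and 43.5 FPKM in the control-labelled ones (64.2-fold lower, limma adjusted p 2.67e-07), while KDR had 0 reads in all libraries. Several other markers of these lists were under the filter but not at 0 in both groups, and they differed in both directions. VWF had 326 reads over the overexpression-labelled group and 24 over the control-labelled one, and CD3E had 18 and 0 (limma with no filter, adjusted p 0.000433 and 0.0248). PDGFRB had 77 reads over the overexpression-labelled group and 504 over the control-labelled one, TEK had 0 and 45, and CDH5 had 0 and 42 (limma with no filter, adjusted p 0.00491, 0.0063 and 0.0384). The part of these markers in the results was not tested either.

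The genes most like each tested factor were sought by the root mean square difference of log2(FPKM + 1) over the 6 libraries, as a description of level and pattern. Among those nearest to ESRP1 were CMTM7 (0.044) and KCNJ5, and those nearest to OVOL2 were C1orf210 (0.057), CORO2B and CPXM1. Nearest to TWIST1 were ANOS1 (0.037), DMD and KYNU, to TWIST2 CASP4, BNIP3 and TINCR, and to ZEB1 RIMS4, CPNE8 and CASP4. CASP4 thus stood near both TWIST2 and ZEB1, whose levels overlap in both groups. SNAI1 had no neighbour as close, with RAB3IL1 at 0.196, then VEGFA and FGFR3, and SNAI2 was nearest to BCL6 (0.143), BDNF and C15orf65.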

How the data were processed

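RNA sequencing libraries of SW480 cells, 3 labelled DDX39B overexpression and 3 labelled control, were compared. Per the labels' protocols, libraries were made from total RNA with an mRNA kit; the aligner, the counter, the strand setting and the origin of the libraries from separate cultures were not given in the sources used here. P-values therefore measure the spread between these libraries, which may be technical. The authors deposited one table of FPKM values, scaled by gene length and library size, with gene lengths and 0 further sample columns. Per the submitters' processing notes the build was mm10, whereas the gene identifiers are human; coordinates are those of the table, which are GRCh38 coordinates. FPKM times gene length gave whole reads within 0.001 for 100% of values above 0, 16963075 to 17463697 reads per library.

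Genes that averaged 1 FPKM or more over the 6 libraries were tested by limma 3.58.1 (R 4.3.3), two-sided, on log2(FPKM + 1) values, with a trend of variance on level and Benjamini-Hochberg adjustment over 13972 genes and a threshold of 0.05. Log2 fold changes on this scale understate the change of low genes. Printed folds divide the group means of FPKM. A group with 0 reads was set to 3 reads over the group, which gives a lower bound, and small totals have exact 95% intervals. Bounds and intervals cover counting error only, as reads carry no molecular identifiers. The fit was also run on simulated reads with known changes of equal size in a small share of genes. That setting is unlike these data, so the run does not show the accuracy of the calls here.

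The 10 members and the 15 gene lists were chosen with earlier results of these data known. Named genes are the 10 members, DDX39B, up to 4 called genes of each list by size of log2 fold change (or the 2 highest in level where none was called), every gene of lists under 8 genes, and 3 genes of like level per tested member. A few genes that this rule names are not reported here. CDH1, VIM, FN1, CDH2, CRB3, AP1M2, MGME1, MIR200C, MIR141, MIR34AHG, FGFR2, RAB25, TBX3, KLF5, TFAP2C, the not-called genes named in the text and further marker genes were chosen after their values were seen. So were ELF3, GATA6, EHF, HNF4A and FOXA3. Other settings tried were a pseudocount of 0.1, no filter or 5 FPKM as filter, other scalings (TPM, quantile, sum of reads), other models (voom on the reads worked out, no trend, the replicate number as a block) and each library left out.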

Additional observations from a re-analysis of the deposited data

How the results depend on the processing

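The 2 higher and 5 lower calls among the 7 tested factors held, with the same direction, under a pseudocount of 0.1, TPM, quantile scaling, FPKM on the sum of reads, voom on reads, no trend and each library left out. With a mean of at least 5 FPKM, 6218 of 7796 genes passed, and 3 of the 10 factors were tested and called (1 higher, 2 lower), as fewer genes pass that filter. Leaving out each library in turn gave 9794 to 11144 genes and 7 to 7 factors past the threshold. Log2 fold changes of tested factors moved most with the scale, for ESRP1 between 3.98 and 9.80 and for TWIST1 between -8.79 and -2.88, and the largest adjusted p among them under any alternative was 0.00108 (limma, SNAI2). Voom on reads shifted the median of all genes by 0.10 on the log2 scale. Replicate numbers did not pair the libraries (correlation of deviations -0.02 to 0.01 for the same number, and not every library correlated best with its own number); with the replicate number as a block 10506 genes and 7 factors passed. For ZEB2, OVOL1 and GRHL2 depth and the filter leave the fit with no filter as the test; TWIST1 and ZEB2 at 0 reads give bounds only.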
